A study of Mus musculus with 6 samples.

Results

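The hair shaft keratins are the cysteine-rich keratins that fill the hardened cells of the hair fibre. The set described here holds Krt31, Krt32, Krt33a, Krt33b, Krt34, Krt35, Krt82, Krt83, Krt85 and Krt86, taken by symbol from a table of read counts per gene. All 10 listed symbols had a row, among 14484 genes in all. The counts come from RNA sequencing of mouse skin in 2 groups of 3 libraries each. ATR WT mice carried ATR +/+ and ATR mD/mD mice carried ATR fl/fl, in which part of the kinase domain of ATR, a kinase activated by stalled DNA replication, is deleted. Both groups also carried Braf CA/+, an inducible activated form of the Braf kinase, and Cre +, on a C57BL/6-129J background. The labels give no promoter for Cre, no age and no body site, and nothing in them says that replicates are different animals, so p-values measure the spread between these libraries. The source named for the mutant samples is nevi, benign growths of pigment cells, that of the others is given as wild type, and the tissue of all 6 as skin. The libraries are called WT1, WT2 and WT3 (ATR WT) and mD1, mD2 and mD3 (ATR mD/mD) below.

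Keratins are obligate partners: a type I (acidic) chain pairs with a type II (basic) chain to build the intermediate filaments of epithelial cells. Of the members, Krt31 to Krt35 encode type I chains and Krt82 to Krt86 encode type II chains. Hair keratins are made in growing (anagen) follicles, in a sequence from the matrix of the hair bulb upwards. Krt35 and Krt85 start first, in the matrix and the cells just above it. Krt31, Krt33a, Krt33b, Krt34, Krt83 and Krt86 follow in the cortex, the bulk of the fibre, and Krt32 and Krt82 belong to the cuticle, its outer scales. Resting follicles keep a finished hair and make little of these transcripts. In whole skin, fewer shaft cells and less of a transcript per shaft cell cannot be told apart.

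The 6 type I genes lie in 1 cluster on chromosome 11, from 100011195 to 100096241 (GENCODE M21, GRCm38, the same assembly as mm10), a span of 85.0 kb. All 6 are on the minus strand: Krt33a (100011195 to 100016212), Krt33b (100023634 to 100029868), Krt34 (100037347 to 100041554), Krt31 (100046646 to 100050551), Krt32 (100080848 to 100088226) and Krt35 (100092193 to 100096241). On chromosome 15, Krt86 runs from 101473478 to 101479986 on the plus strand and Krt82 from 101541214 to 101550667 on the minus strand. No position or length was used here for Krt85. None was used for the row named Krt83 either: RefSeq gives Krt83 as an older symbol of the gene now called Krt87, which has no row of its own, and gives 5430421N21Rik, which does have a row, as an older name of the present Krt83 and of Krt86. The name Krt83 below means that row of the table, and which of these type II hair keratin genes it counted cannot be told from the symbols.

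RefSeq promoter sequences (GRCm38.p6) matched 5 of the members. They are shown because Krt32 kept a level in every library that the other members did not. Krt31, Krt33b and Krt34 had the same highest and the same lowest library. That was also so for Krt33a, Krt35, Krt85 and Krt86, which had no match and are not shown. Each line gives the 150 bases just before the RefSeq start site, 5′ to 3′ on the gene's own strand, all on the minus strand of the chromosome. Capitals mark TATAAA (the TATA box), CTTTGA (the core of LEF/TCF sites) and ATAAA, which is TTTAT (a core of HOX sites) on the other strand. TTTAT on the opposite strand is contained in TATAAA, so every TATA box also counts as a HOX core.
Krt31 (chr11:100050552-100050701): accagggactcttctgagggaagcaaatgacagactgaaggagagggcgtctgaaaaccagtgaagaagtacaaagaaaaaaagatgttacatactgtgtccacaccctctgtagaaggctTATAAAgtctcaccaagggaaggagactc
Krt33b (chr11:100029869-100030018): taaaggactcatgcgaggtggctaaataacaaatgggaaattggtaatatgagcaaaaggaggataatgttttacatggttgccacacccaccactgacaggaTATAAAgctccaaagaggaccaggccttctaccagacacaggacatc
Krt34 (chr11:100041555-100041704): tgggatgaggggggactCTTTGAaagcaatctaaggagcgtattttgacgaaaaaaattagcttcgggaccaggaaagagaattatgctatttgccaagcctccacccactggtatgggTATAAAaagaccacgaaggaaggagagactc
Krt32 (chr11:100088270-100088419): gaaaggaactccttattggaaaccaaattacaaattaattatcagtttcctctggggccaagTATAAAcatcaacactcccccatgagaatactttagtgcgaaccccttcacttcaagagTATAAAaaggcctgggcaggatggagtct
Krt82 (chr15:101550660-101550809): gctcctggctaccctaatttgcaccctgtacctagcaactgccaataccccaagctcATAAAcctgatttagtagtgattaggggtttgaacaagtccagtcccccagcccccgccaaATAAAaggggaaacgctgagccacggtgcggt
TATAAA occurred in 4 of the 5 windows, against 7.57% of all 32851 promoter windows of that length. It began 29, 47 and 31 bases before the start site in Krt31, Krt33b and Krt34, and Krt32 held it at 29 and again at 88 bases before its start. Krt82 had no TATAAA and held TTTAT on the other strand at 32 and 93 bases before its start. TTTAT was found in all 5 windows and in 24.1% of all windows, on either strand. CTTTGA was found in Krt34 alone among the 5 and in 7.93% of all windows, and GCCNNNGGC, an AP-2 site, in 0 of the 5 and in 9.61%. These letters were searched on both strands, and a match is a description of the sequence only. The GENCODE start of Krt32 lies 43 bases and that of Krt82 8 bases from the RefSeq start used for these windows.

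Gene counts summed to between 34723600 and 46847751 per library. Levels are counts scaled to library size by the TMM method (CPM), and intervals are exact 95% Poisson or Clopper-Pearson intervals, which cover counting error only. Libraries were ordered by the mean level of 11 non-keratin hair genes, none of them a member, among them Tchh (trichohyalin, of the inner root sheath), S100a3 (a cuticle protein) and Hoxc13 (a regulator of hair keratins). That mean was 0.81 log2 CPM in mD1, 2.02 in WT1, 2.21 in mD2, 6.29 in WT2, 6.55 in mD3 and 6.70 in WT3. The step from the third to the fourth library was the widest, and each genotype had libraries on both sides of it. In all 10 members, WT2, WT3 and mD3 were the 3 highest libraries. These libraries are no group of the study, so they are given one by one. Between genotypes, 0 of the 11 ordering genes passed, also unadjusted (edgeR, median log2 fold change -0.78). Over all genes, 0.0483% passed at an adjusted p under 0.05 and 1.66% had an unadjusted p under 0.05. With so few passing, a count of 0 in a short list is close to the share of all genes. The plots label the libraries with the full genotype and the number.

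**Figure D1:**
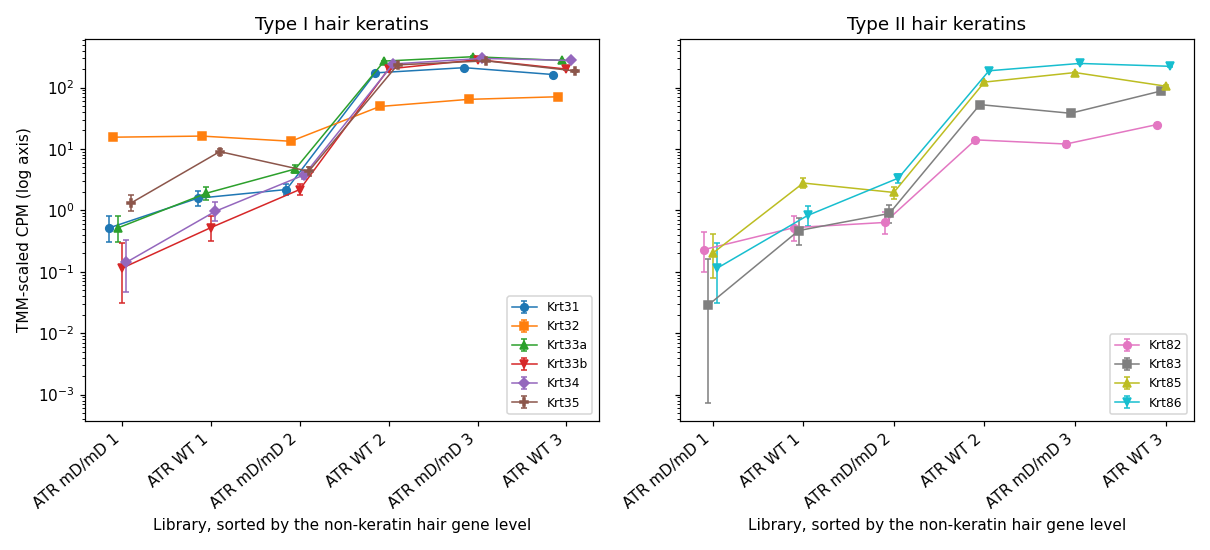
TMM-scaled CPM (log axis) of the 6 type I and 4 type II hair keratins in each library, with libraries sorted along the x axis by the mean of the 11 non-keratin hair genes; bars are exact 95% Poisson intervals. Krt32 stays between 13.3 and 70.7 CPM, while the other 9 genes are at most 9.04 CPM in the 3 libraries on the left and at least 12.02 CPM in the 3 on the right.

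Together, the 10 genes took 0.159% of the gene counts of WT2, 0.168% of WT3 and 0.188% of mD3. They took 0.00321% of WT1, 0.00188% of mD1 and 0.00381% of mD2. The summed level was 1917 CPM in mD3, the highest library, and 18.7 CPM in mD1, the lowest, a 102.5-fold range (94.9 to 110.9) whose ends carry the same genotype. With the row 5430421N21Rik in place of the row Krt83, the range was 111-fold.

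Among the cortex genes, Krt34 had 35, 10517 and 13485 counts in WT1 to WT3, and 5, 149 and 10401 in mD1 to mD3. Its level was 0.97, 241.9 and 276.0 CPM in the wild-type and 0.14, 3.78 and 297.7 CPM in the mutant libraries. Each genotype thus held libraries at both ends, and the groups overlapped. Krt33b, its neighbour, had 19, 8727 and 9753 counts in WT1 to WT3 and 4, 86 and 9933 in mD1 to mD3, or 0.52, 200.7 and 199.6 CPM against 0.11, 2.18 and 284.3 CPM. Krt33a had 69, 11709 and 13479 counts against 18, 186 and 11085 (1.90, 269.3 and 275.9 CPM against 0.51, 4.72 and 317.3 CPM). Krt31 had 57, 7528 and 7949 counts against 18, 86 and 7349 (1.57, 173.1 and 162.7 CPM against 0.51, 2.18 and 210.4 CPM). All 4 genes had their highest value in mD3, their lowest in mD1, and mD2 above WT1.

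The type II cortex gene Krt86 ordered the libraries as Krt34 did, with 30, 8145 and 10818 counts in WT1 to WT3 and 4, 132 and 8613 in mD1 to mD3 (0.83, 187.3 and 221.4 CPM against 0.11, 3.35 and 246.5 CPM). Krt83 had 17, 2292 and 4290 counts against 1, 35 and 1330, or 0.47, 52.7 and 87.8 CPM against 0.03, 0.89 and 38.1 CPM. The single count in mD1 allows a level of up to 0.159 CPM. Unlike Krt86, Krt83 was highest in WT3 and lower in mD3 than in both WT2 and WT3. The row 5430421N21Rik, with 25, 5872 and 4945 counts in WT1 to WT3 and 7, 61 and 7503 in mD1 to mD3, was highest in mD3 (214.8 CPM against 101.2 CPM in WT3).

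Of the early genes, Krt35 had 328, 10164 and 9082 counts in WT1 to WT3 and 46, 170 and 9483 in mD1 to mD3, or 9.04, 233.8 and 185.9 CPM against 1.32, 4.32 and 271.4 CPM. Krt85 had 101, 5327 and 5137 counts against 7, 77 and 6121, or 2.78, 122.5 and 105.1 CPM against 0.20, 1.96 and 175.2 CPM. In these 2 genes WT1 was above mD2, by 2.10-fold for Krt35 (95% counting interval 1.74 to 2.54) and by 1.42-fold for Krt85 (1.05 to 1.94). In the cortex genes Krt34, Krt33b, Krt86 and Krt33a the same ratio was 0.255 (0.171 to 0.371), 0.240 (0.138 to 0.398), 0.247 (0.160 to 0.369) and 0.403 (0.301 to 0.534), so these intervals lie on the other side of 1. It was 0.527 (0.277 to 0.967) in Krt83 and 0.720 (0.506 to 1.018) in Krt31, whose interval holds 1. In the cuticle genes it was 1.21 (1.08 to 1.37) for Krt32 and 0.825 (0.430 to 1.56) for Krt82. WT1 was thus above mD2 in 3 of the 10 members, not in the early genes alone. Each ratio compares 1 library with 1 library and has no replicate check.

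The cuticle gene Krt32 stood apart. It had 587, 2134 and 3453 counts in WT1 to WT3 and 543, 525 and 2241 in mD1 to mD3, or 16.2, 49.1 and 70.7 CPM against 15.5, 13.3 and 64.1 CPM. Its lowest library was mD2 rather than mD1, and WT1 and mD1 differed by 1.04-fold (0.926 to 1.17). Krt82, also of the cuticle, had 19, 611 and 1214 counts against 8, 25 and 420 (0.52, 14.1 and 24.8 CPM against 0.23, 0.63 and 12.02 CPM). Like Krt83, Krt82 was lower in mD3 than in both WT2 and WT3, with a ratio to WT3 of 0.484 (0.432 to 0.541), and that of Krt83 was 0.434 (0.407 to 0.461). For Krt85 the ratio of these libraries was 1.67 (1.61 to 1.73) and for Krt35 1.46 (1.419 to 1.503). In total, mD3 was above both WT2 and WT3 in 7 of the 10 genes, below both in Krt82 and Krt83, and between them in Krt32.

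Some counts rest on reads that related genes could share. Of the 50-base stretches in the GENCODE transcripts of a gene, 43.3% in Krt86, 33.1% in Krt34, 28.1% in Krt31, 24.2% in Krt33b and 17.8% in Krt33a also occurred in a transcript of another gene. The share was 2.70% in Krt35 and 0% in Krt32 and Krt82. Values of Krt86, Krt31, Krt33a, Krt33b and Krt34 are therefore uncertain, since reads from shared stretches may be missing or placed in a relative. So are those of the row Krt83, since the share was 22.1% in the GENCODE gene Krt83 and 36.9% in Krt87. Krt85 was not assessed. The counting tool is not given in the sources used here, but the table keeps reads aligned to more than 1 place in a row of their own. Krt32 is overlapped on the opposite strand by the antisense gene Gm11571 over 249 of its 1721 exon bases (14.5%), and the library kit does not mark strand. Gm11571 has no row in the table, so its part in the Krt32 count was not tested.

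Each level was then set against the highest library of the same gene, to order the members by how much remained where the level was low. In WT1, Krt32 was at 22.9% of its highest library (95% counting interval 21.1 to 24.8), Krt35 at 3.33% (2.98 to 3.71), Krt82 at 2.11% (1.27 to 3.29) and Krt85 at 1.59% (1.29 to 1.93). Krt31, Krt33a and Krt83 followed at 0.747%, 0.600% and 0.534%, and Krt86, Krt34 and Krt33b were at 0.336%, 0.324% and 0.184% (0.111 to 0.288). The cuticle and matrix genes thus kept more than the cortex genes in that library, and the counting intervals of Krt85 and Krt31 did not overlap. Krt82 and Krt85 had overlapping intervals, as did Krt86, Krt34 and Krt83.

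In mD1 the levels were lower, and Krt85 no longer stood above the cortex genes Krt31 and Krt33a. Krt32 was at 22.0% (20.2 to 23.9), Krt82 at 0.921% (0.397 to 1.81) and Krt35 at 0.485% (0.355 to 0.646). Krt31, Krt33a and Krt85 were at 0.245%, 0.162% and 0.114%, and Krt34, Krt86, Krt33b and Krt83 at 0.0480%, 0.0464%, 0.0402% and 0.0326%, with 5, 4, 4 and 1 counts. Neighbours from Krt82 down to Krt83 had overlapping counting intervals. In mD2, the order was flatter below Krt32, which was at 18.9% (17.3 to 20.5). Krt82 was at 2.55% (1.65 to 3.77), and the others lay between 0.768% (Krt33b) and 1.59% (Krt35). Krt85 at 1.12% (0.881 to 1.39) was below Krt33a, Krt86 and Krt34 at 1.49%, 1.36% and 1.27%, but its interval overlapped theirs. Against the median of the 3 highest libraries of each gene, Krt85 at 1.60% was above Krt86 at 1.51% and Krt34 at 1.37%. Krt32 came first in WT1, mD1 and mD2, and Krt35 and Krt82 took the next 2 places in each. The interval of Krt35 overlapped that of Krt31 in mD1 and that of Krt33a (1.28 to 1.72) in mD2. These places held also when each level was set against the median of the 3 highest libraries of the gene, although 25 of the 60 places in all 6 libraries were the same under that reference.

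**Figure D2:**
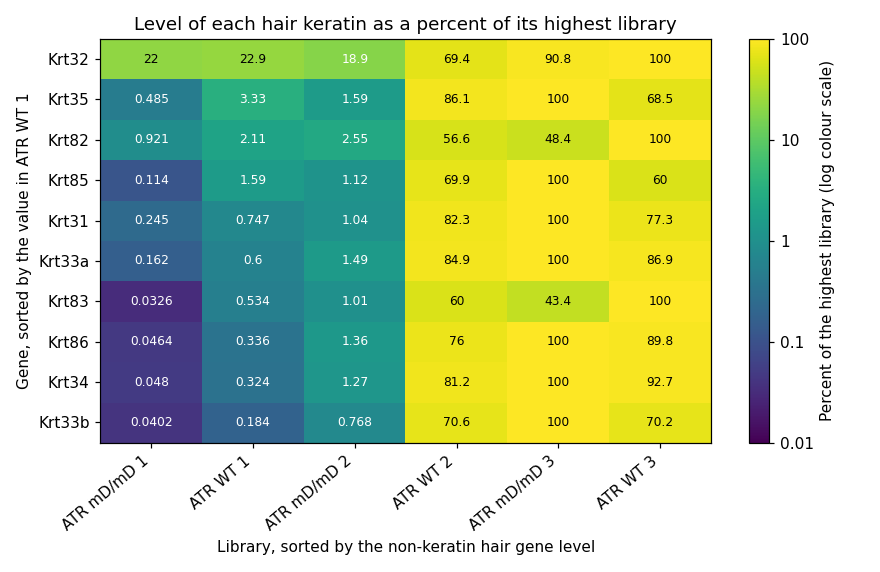
Level of each hair keratin as a percent of the library in which that gene was highest (numbers in the cells, log colour scale), with libraries sorted by the non-keratin hair gene level and genes by their value in WT1. Krt32 keeps 18.9% to 22.9% in the 3 libraries on the left, where the other genes are between 0.0326% and 3.33%.

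As chain types, the 6 type I genes summed to 30.2, 1168 and 1171 CPM in WT1 to WT3 and to 18.1, 30.5 and 1445 CPM in mD1 to mD3. The 4 type II genes summed to 4.60, 376.6 and 439.2 CPM and to 0.572, 6.83 and 471.9 CPM. In mD1 the type I sum was at 1.25% and the type II sum at 0.121% of its highest library, and in WT1 at 2.09% and 0.976%. Without Krt32, the type I sum was at 0.188% in mD1, 1.014% in WT1 and 1.24% in mD2, where the type II sum was at 1.45%. These sums compare libraries, not chain types, since they are not scaled by gene length.

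The make-up of the hair keratin counts changed with the level. Krt32 held 3.18%, 4.39% and 3.35% of the counts of the 10 genes in WT2, WT3 and mD3. It held 46.5% (43.7 to 49.3) in WT1, 83.0% (79.9 to 85.8) in mD1 and 35.7% (33.2 to 38.2) in mD2. Krt35 held 26.0% (23.6 to 28.5) in WT1, 11.6% (9.97 to 13.3) in mD2 and 7.03% (5.195 to 9.27) in mD1, against 11.5% to 15.1% in the 3 libraries with the highest levels. Krt33b went the other way, at 1.51% in WT1, 0.612% in mD1 and 5.85% in mD2, against 12.4% to 14.8%. The shares of Krt31, Krt33a, Krt34 and Krt86 were also lower in WT1, mD1 and mD2 than in WT2, WT3 and mD3. Shares are parts of 1 total per library, so a larger share of Krt32 leaves less for the other genes.

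**Figure D3:**
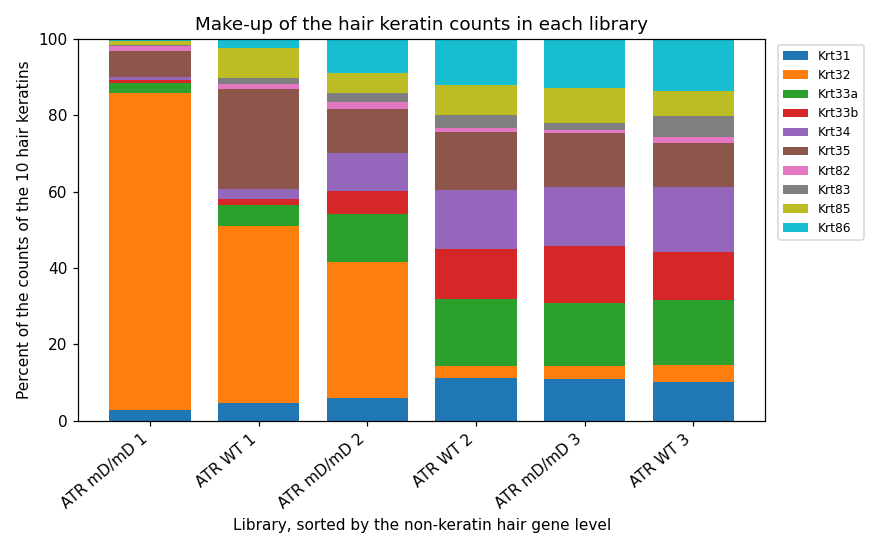
Share of each gene in the summed counts of the 10 hair keratins (percent, stacked to 100), 1 bar per library, sorted by the non-keratin hair gene level. Krt32 takes 83.0%, 46.5% and 35.7% of the 3 bars on the left and 3.18% to 4.39% of the 3 on the right.

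Levels of different genes were compared per kilobase of exon, for the 8 members with a length, with no correction for stretches shared with relatives. In WT2, Krt34 led with 150.3 CPM per kb, then Krt33a with 130.5, Krt33b with 127 and Krt31 with 109.5, while Krt32 had 28.5 and Krt82 6.66 CPM per kb. Krt34 also led in WT3 (171.5 CPM per kb) and mD3 (185.0 CPM per kb), and Krt32 and Krt82 were the last 2 of the 8 in these 3 libraries. With the length of the longest transcript in place of all exons, Krt33a passed Krt34 in WT2, mD2 and mD3. In WT1, mD1 and mD2 Krt32 led instead, with 9.41, 9.02 and 7.75 CPM per kb. The next highest was Krt35 in the first and second of these (3.77 and 0.55 CPM per kb) and Krt34 in the third (2.35 CPM per kb), where Krt33a took that place with 2.81 CPM per kb of longest transcript.

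Between genotypes, edgeR's quasi-likelihood test called 0 of the 10 genes at a Benjamini-Hochberg adjusted p under 0.05 (over all genes), where 0.0483% of all genes were called lower and 0% higher in ATR mD/mD. At an unadjusted p under 0.05 the count was also 0 of 10, against 1.66% of all genes, and the groups overlapped in all 10, while they did not overlap in 4.84% of all genes. Limma-voom and edgeR's exact test each called 0 of the 10, against 0.0483% and 0.173% of all genes. DESeq2 gave no p-value for Krt31, Krt33a and Krt33b and called 0 of the other 7, against 0.27% of the 14437 genes it tested. All 10 log2 fold changes of ATR mD/mD against ATR WT were negative, with a median of -0.69, beside 0.01 over all genes. The authors' deposited table gives adjusted p-values of 1 for all 10, and its smallest unadjusted p-value among them is 0.165, for Krt82.

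The standard errors were as large as the differences or larger. Krt83 averaged 47.0 ± 43.9 CPM over the wild-type and 13.0 ± 21.7 CPM over the mutant libraries (SD, n = 3). Its log2 fold change was -1.86 (SE 2.09), and the adjusted p was 0.9999 for each of the 10 genes (edgeR). Krt82 averaged 13.1 ± 12.2 and 4.30 ± 6.69 CPM (SD, n = 3), and its log2 fold change was -1.62 (SE 1.63). Krt32, with the smallest error, averaged 45.3 ± 27.4 and 31.0 ± 28.7 CPM (SD, n = 3), and its log2 fold change was -0.55 (SE 0.755). The other 7 had log2 fold changes between -0.78 (Krt34, SE 2.31) and -0.38 (Krt85, SE 2.05). Without mD3, the only high library of its genotype, the median of the 10 became -6.20, and 0 passed after adjustment (adjusted p = 0.708 for each, edgeR). In that fit all 10 had an unadjusted p under 0.05, as had 7.01% of all genes, and 0.0414% of all genes passed after adjustment. In all 10, mD3 was among the 3 highest libraries, so the change in this fit follows from the library left out.

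With the mean of the 11 non-keratin hair genes as a covariate, 0 of the 10 passed, against 0.0829% of all genes, and 4 of the 10 log2 fold changes were negative. Those of Krt35, Krt82, Krt83 and Krt85 were -0.44 (SE 0.373), -0.43 (SE 0.265), -0.56 (SE 0.387) and -0.07 (SE 0.407). Those of Krt31, Krt32, Krt33a, Krt33b, Krt34 and Krt86 turned to 0.19 (SE 0.222), 0.06 (SE 0.238), 0.37 (SE 0.302), 0.68 (SE 0.380), 0.53 (SE 0.447) and 0.58 (SE 0.439). In this fit 0 of the 10 had an unadjusted p under 0.05, against 5.1% of all genes, and the smallest adjusted p among them was 0.971 (edgeR). The standard errors were smaller than without the covariate in all 10. All 11 covariate genes had the same 3 highest libraries as the members and were measured in the same libraries. The smaller errors therefore follow from the choice of covariate.

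**Figure D4:**
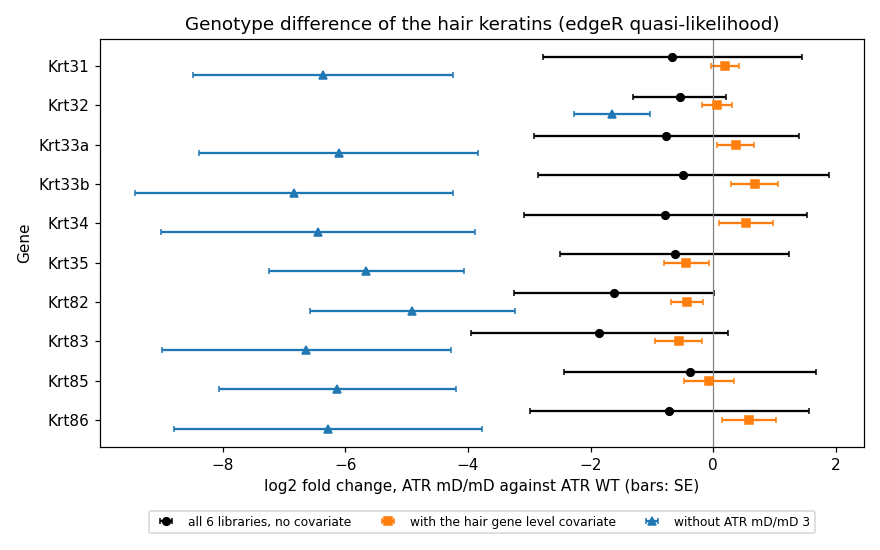
Log2 fold change of ATR mD/mD against ATR WT for each hair keratin, with SE as bars, from edgeR's quasi-likelihood fit of all 6 libraries (black), with the hair gene covariate (orange) and without mD3 (blue). The black values lie between -1.86 and -0.38, the orange between -0.56 and 0.68 and the blue between -6.83 and -1.65.

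The other hair keratins had the same 3 highest libraries. Of 6 listed, 5 had a row, and edgeR called 0 of the 5 between genotypes, with 0 at an unadjusted p under 0.05 (median log2 fold change -0.78). The shares over all genes were 0.0483% and 1.66%. Krt81, a type II cortex gene close to Krt86 in sequence, had 22, 5878 and 8066 counts in WT1 to WT3 and 5, 97 and 6498 in mD1 to mD3. Krt36 was at 3.54%, 2.54% and 7.89% of its highest library in WT1, mD1 and mD2, above the values of every member but Krt32 in each. Krt84, Krt39 and Krt40 were highest in WT3, as were Krt32, Krt82 and Krt83. Krt39 had 393 counts in WT3 and 0 in mD1, where 3 counts, the limit taken for a count of 0, are 0.0858 CPM (the exact 95% Poisson bound is 0.105 CPM).

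Other products of the shaft and the regulators of its genes were read in the same way. The summed level of 48 keratin-associated protein (Krtap) genes, which encode the matrix around the filaments, was at 0.577%, 0.464% and 1.79% of its highest library in WT1, mD1 and mD2. Of these 48 genes, 19 had 0 counts in mD1, and each of the 10 keratins had at least 1. These counts do not compare the loss of the 2 lists, since the Krtap genes were lower also where both were high. Their mean was 5.46, 5.80 and 5.57 log2 CPM in WT2, WT3 and mD3, against 6.86, 7.05 and 7.07 for the 10 keratins. Between genotypes, 0 of the 48 passed, also unadjusted (median log2 fold change -1.08). Beside this list, the cross-linking list and the regulators stand shares of 0.0483% (adjusted) and 1.66% (unadjusted) over all genes. The cross-linking and adhesion list gave 0 of 10 (median -0.90), among them Tchh at 35.6, 2648 and 3586 CPM in WT1 to WT3 and 5.15, 49.4 and 2778 CPM in mD1 to mD3. Its genes of highest mean level, Tchh, Prr9, S100a3 and Lrrc15, are also among the 11 genes that ordered the libraries. The likeness of this list to the library order therefore follows in part from shared genes and is no separate observation. Of 10 listed regulators, 0 passed between genotypes or had an unadjusted p under 0.05 (median log2 fold change -0.21). Hoxc13, a homeobox factor that binds hair keratin promoters, was at 12.4%, 8.39% and 10.8% of its highest library in those 3 libraries. Foxn1, the factor missing in nude mice, was at 24.0%, 19.96% and 26.1%, and Lef1, a Wnt effector, at 16.8%, 16.2% and 15.8%. Gata3, a factor of the inner root sheath and the epidermis, was at 100%, 99.8% and 89.3%, and Vdr, the vitamin D receptor, at 32.5%, 35.8% and 33.9%. Each of these 5 regulators thus kept a larger share than 9 of the members, and Krt32 lay among them. Hoxc13, Foxn1 and Lef1 were named after their values were seen and are also among the 11 genes that ordered the libraries.

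Markers of other skin cells gave 0 genes past the genotype test (edgeR) and 0 at an unadjusted p under 0.05, against 0.0483% and 1.66% of all genes. The summed level of 8 inner root sheath keratins, made by the layer around the growing shaft, was 143.2, 7541 and 8023 CPM in WT1 to WT3 and 9.18, 118.2 and 8302 CPM in mD1 to mD3. All 5 melanocyte markers and all 5 proliferation markers had the same 3 highest libraries as the hair keratins, with summed levels of 138.6 to 763.9 and 139.0 to 303.3 CPM in WT1 to WT3 and of 80.2 to 780.5 and 109.7 to 517.8 CPM in mD1 to mD3. The 8 epidermal keratins summed to 23181, 19591 and 23146 CPM in WT1, mD1 and mD2 and to 14077, 15879 and 16006 CPM in WT2, WT3 and mD3. Markers of skeletal muscle (5 of 5 measured) summed to 23587 CPM in WT1, 14248 in mD1 and 15447 in mD2, and to 8683, 5327 and 5177 CPM in WT2, WT3 and mD3. The epidermal and muscle sums were thus higher in the 3 libraries where the hair keratins were low. Of the 4 epidermal genes of highest mean level, Krt10 and Krt15 followed the sum, and Krt5 and Krt14 did not. Krt14 was at 2998, 2447 and 2449 CPM in WT1, mD1 and mD2 and at 2325, 3496 and 3488 CPM in WT2, WT3 and mD3. The epidermal list thus had no single direction gene by gene. The sum of 8 bulge stem cell genes was 5360, 5124 and 5229 CPM in WT1, mD1 and mD2 against 3497, 3244 and 4142 CPM in WT2, WT3 and mD3. Most of it was Krt15 (4796 CPM in WT1), which is also on the epidermal list. Of the 8 genes, 4 had the same 3 highest libraries as the hair keratins. The mean of the 8 was 6.05, 6.04 and 6.14 log2 CPM in WT1, mD1 and mD2. In WT2, WT3 and mD3 that mean was higher, at 6.36, 6.42 and 6.45, so the bulge list had no single direction. All 5 genes of the companion layer and outer root sheath had the same 3 highest libraries as the hair keratins, with sums of 2328, 3906 and 4697 CPM in WT2, WT3 and mD3 against 1460, 1121 and 1034 CPM in WT1, mD1 and mD2. Sebaceous (4955 to 5987 and 4091 to 8373 CPM), adipocyte (1984 to 2693 and 2181 to 3574 CPM), fibroblast (13574 to 17497 and 6994 to 16162 CPM) and immune markers (97.6 to 162.3 and 96.2 to 190.0 CPM; Cd79a had no row) overlapped between genotypes too. No marker on these cell lists was at 0 in any library. The part of these cells in the hair keratin levels was not tested.

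The genes nearest in pattern were sought among 12983 other genes, by the root mean square difference of centred log2 CPM from the median of the 10 members over the 6 libraries. The nearest 6 were Krtap3-3 (0.21 log2 units), Krtap11-1 (0.23), Tchh (0.25), Krtap4-2 (0.29), Gprc5d (0.30) and Krtap26-1 (0.34). Gprc5d encodes an orphan receptor of the G protein-coupled family, with 21, 3969 and 5332 counts in WT1 to WT3 and 3, 73 and 4354 in mD1 to mD3. By the same measure, Krt33a was the member closest to the median (0.17) and Krt32 (2.80), Krt82 (1.28) and Krt35 (0.90) were the farthest. The 6 points of each gene share library and depth, so this likeness is a description.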

How the data were processed

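RNA was measured in 6 mouse skin libraries, 3 ATR WT and 3 ATR mD/mD, grouped by the sample labels. Per the labels' protocols, poly(A) RNA was enriched on oligo dT beads, and the TruSeq RNA v2 kit, which does not mark strand, was used. The submitters' processing notes name FastQC, TopHat2 2.0.12, edgeR and mm10. The file deposited by the authors holds read counts per gene as whole numbers, not normalized, per the file headers. The read counter, the annotation and any filter were not given in the sources used here. Also in the file are the authors' own log2 fold change, average log2 CPM, p-value and adjusted p-value per gene, per the file headers. The 2 rows that name no gene held 4.93% to 5.72% of a library's counts and were left out.

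Counts were scaled by TMM and tested over 14484 genes with edgeR 4.0.16 (R 4.3.3) by its quasi-likelihood test after filterByExpr, which removed no gene, checked on simulated data. Each SE was taken as the size of the log2 fold change over the root of F. Log2 CPM used a prior count of 2. Replicates were compared pairwise and all differed beyond counting noise (chi-square per degree of freedom at least 55.4). Alternatives were DESeq2 size factors, no filter, 1 CPM in at least 3 samples, DESeq2 1.42.0, limma-voom (limma 3.58.1), the exact test, the replicate number as a block, the hair gene covariate, and leaving out each library. The row 5430421N21Rik in place of the row Krt83 was added after the data were seen. The labels name no batch. Members, lists, motifs and tests were chosen with earlier results of these data known. Named were the 10 members, the other hair keratins, at most 4 genes of highest mean level in each other list, and the 6 genes nearest in pattern with a mean of at least 1 log2 CPM, passing over symbols of the Gm or Rik kind. Hoxc13, Foxn1, Lef1, Gm11571 and 5430421N21Rik lie outside this rule.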

Additional observations from a re-analysis of the deposited data

How the results depend on the processing

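Under each alternative run, 0 of the hair keratins tested passed between genotypes, with adjusted p-values from 0.708 up (edgeR, DESeq2 or limma-voom). All 10 were tested in each, except with DESeq2, which gave a p-value for 7 and none for Krt31, Krt33a and Krt33b. The median log2 fold change ran from -6.20 to -0.15 with 1 library left out (the lowest without mD3), and was -2.79 with limma-voom, 0.13 with the hair gene covariate and -0.65 with the row 5430421N21Rik in place of Krt83, under which the range of the summed level was 111-fold. The labels do not say whether the replicate numbers pair the samples. The correlation of deviations from the group means was 0.63, -0.51 and 0.57 for numbers 1, 2 and 3. The hair gene level was alike within numbers 1 and 3 and unlike within number 2, so these values cannot decide it. With the number as a block the median was -2.67, 0 members passed, and 2 members (Krt82 and Krt83) had an unadjusted p under 0.05, as had 309 of all 14484 genes. The sign turned with the hair gene covariate for Krt31 (0.19), Krt32 (0.064), Krt33a (0.37), Krt33b (0.68), Krt34 (0.53) and Krt86 (0.58). It also turned for Krt85 when WT2 (0.13), mD1 (0.21) or mD2 (0.19) and for Krt33b when mD1 (0.10) or mD2 (0.090) was left out, and the cause was not tested. With 1 library left out, Krt85 ran from -6.13 to 0.21 and Krt33b from -6.83 to 0.10. Of 60 places in the order of loss, 25 were the same against the median of the 3 highest libraries. These 60 include the places in WT2, WT3 and mD3, where the levels were high. Krt32, Krt35 and Krt82 held the first 3 places in WT1, mD1 and mD2 under both references. The quasi-likelihood test called 7 genes in the whole table, against 39 with DESeq2, 25 with the exact test, 12 with the covariate and 4 to 10 with 1 library left out. Counts of 1 to 7 in mD1 limit the order of the lowest 5 members there.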
